A study of Arabidopsis thaliana and Medicago truncatula and Solanum lycopersicum with 15 samples.

Results

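Accessible chromatin of root hair cells was compared with that of non-hair cells of the Arabidopsis thaliana root epidermis. There were 2 region lists per cell type, out of the 14 region lists of the series. The members were all regions on chromosomes 1 to 5 of these 4 lists, 171542 of 753507 regions in all. The assay was ATAC-seq, where Tn5 transposase inserts sequencing adapters into DNA that is open in the nucleus. All plants were Col-0 and grew on vertical agar plates with 16 h of light and 8 h of dark. Nuclei came from the fully differentiated root zone, taken above the first fully expanded hairs and below the lateral roots, and 50000 nuclei entered each reaction. Both cell types were captured by INTACT, in which a nuclear envelope tag (NTF) is biotinylated by the ligase BirA and bound to streptavidin beads. Hair nuclei came from plants carrying ADF8p:NTF and ACT2p:BirA, and non-hair nuclei from plants carrying GL2p:NTF and ACT2p:BirA. The ADF8, GL2 and ACT2 promoters were therefore present in added copies, and reads from an added copy and from the gene's own promoter cannot be told apart in these lists. The cell types were also 2 different transgenic lines, so effects of the line and of the cell type cannot be told apart. Arabidopsis root tip lists are given beside them as another part of the root. These came from 1 cm root tips, 2 lists by INTACT and 2 by sucrose sedimentation. They held 23288 and 23690 regions after INTACT and 11702 and 15813 after sucrose sedimentation. Hair and non-hair lists with the same replicate number were compared as pair 1 and pair 2, and a difference was counted as a cell type difference where it had the same sign in both pairs and passed a stated size in each.

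Root epidermal cells become hair cells or non-hair cells by position over the cortex. In non-hair cells a complex of the MYB factor WER, the helix-loop-helix factors GL3 and EGL3 and the WD40 protein TTG1 switches on GL2, a homeodomain factor that represses hair genes. Small MYB proteins such as CPC, TRY, ETC1 and ETC3 block that complex in hair cells, where RHD6 and related helix-loop-helix factors then switch on hair growth. ADF8 encodes an actin depolymerizing factor of root hairs.

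The lists differed more by replicate number than by cell type. Hair replicates held 52373 and 35679 regions, covering 17.6 and 11.5 Mb, and non-hair replicates held 52278 and 31212 regions, covering 18.0 and 9.98 Mb. Mean region width was 335 and 322 bp in hair lists and 345 and 320 bp in non-hair lists. Regions over 1 kb numbered 1279 and 431 in hair lists and 1439 and 331 in non-hair lists. Replicate 1 was higher than replicate 2 for all 4 quantities in both cell types, and the cell types overlapped. On the log2 scale covered length was 0.081 higher in hair lists, against a pooled replicate SD of 0.53 (exact two-sided permutation p = 1, n = 2 lists each). Leaving out 1 list at a time moved this value from -0.35 to 0.51, so its sign depended on single lists. The smallest p that 2 lists against 2 can give is 0.3333. The commonest width, which 16.9% to 21.5% of the regions shared, was 127 and 142 bp in hair lists and 131 and 152 bp in non-hair lists. The lists carry no read totals. Sequencing depth is therefore unknown, and the values below are not corrected for it.

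Loci at the genes whose promoters drove the nuclear tag ranked first toward non-hair cells (GL2) and second toward hair cells (ADF8). Upstream of GL2 (AT1G79840), between GC5 and GL2 on chromosome 1 at chr1:30034391-30037014 (TAIR10), a block of accessible DNA covered 2603 bp in non-hair replicate 1 and 2537 bp in non-hair replicate 2, against 664 and 538 bp in hair replicates 1 and 2. The groups did not overlap. The block was 3.92-fold wider in non-hair cells in pair 1 and 4.72-fold wider in pair 2, and it ranked first among loci wider in non-hair cells. In non-hair replicate 1 it was a single region, of which 59 bp lay inside the GL2 gene model, and in non-hair replicate 2 it was 2 regions separated by a short gap. Both hair lists held 3 short regions in the same stretch. All 4 Arabidopsis root tip lists, from INTACT and from sucrose sedimentation, had 0 bp there. The outer edges of the block in the 2 non-hair lists differed by 21 bp at its first end and by 65 bp at its last.

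At ADF8 (AT4G00680), a region at chr4:280236-281486 covered 1251 and 1210 bp in hair replicates 1 and 2 and 396 and 350 bp in non-hair replicates 1 and 2. All 4 lists had a single region there, and the groups again did not overlap. The region was 3.16-fold wider in hair cells in pair 1 and 3.46-fold wider in pair 2, the second rank among loci wider in hair cells. Of its 1251 bp in hair replicate 1, 837 bp lay inside the ADF8 gene model, and it reached into ULP1B, the neighbouring gene for a SUMO protease. Its edges in the hair lists differed by 21 and 20 bp. Next to it, at chr4:283607-283975 in hair replicate 1, a region of 369 bp had widths of 274 bp in hair replicate 2 and of 384 and 282 bp in the non-hair lists, so the difference did not extend to this neighbour. The root tip lists covered the ADF8 region by 243 and 0 bp after INTACT and by 0 and 140 bp after sucrose sedimentation.

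The promoter of ACT2, an actin gene active in most cells, drove BirA in both lines. The largest region at its promoter, chr3:6474109-6475026 in hair replicate 1, was 918 bp wide in both hair lists and 1042 and 954 bp wide in the non-hair lists. Over the gene and 1 kb on either side, ACT2 had 2559 and 1963 bp covered in hair lists and 3176 and 1828 bp in non-hair lists. The groups overlapped and the pairs had opposite signs. The plot of covered length by list shows the 4 values for these genes and for the listed genes described further on.

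**Figure D1:**
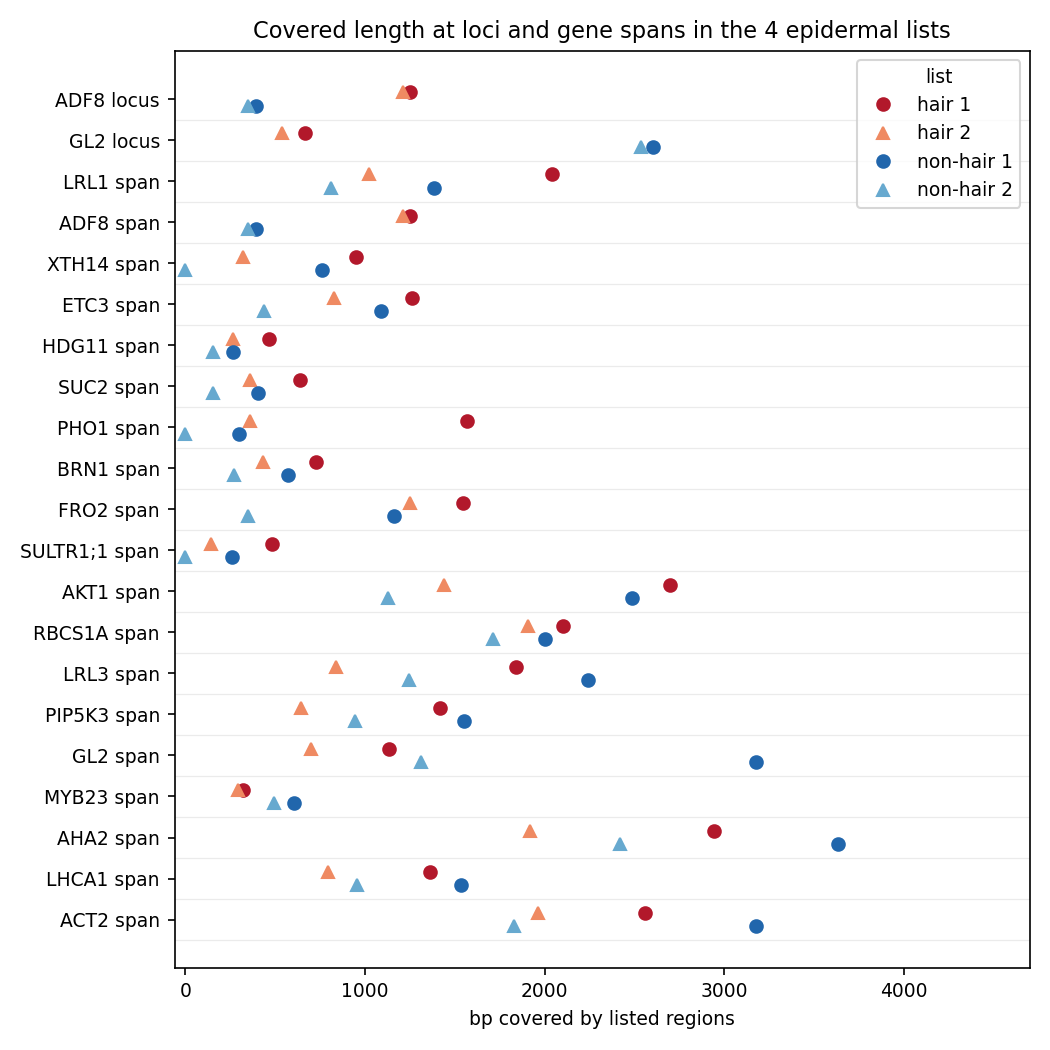
Covered length in bp (x axis) in each of the 4 epidermal lists at the ADF8 and GL2 loci, at the spans (gene with 1 kb on either side) of listed genes counted as different, and at ACT2. Each point is 1 list. Hair and non-hair points do not overlap at the ADF8 and GL2 loci, whereas at ACT2 both non-hair values enclose the hair values.

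Width was then compared at all loci that the 4 lists share. Overlapping regions were joined into 58036 loci, of which 25892 (44.6%) had covered length in all 4 lists. At these loci 97 (0.375%) were at least 1.5-fold wider in hair cells in both pairs, and 59 (0.228%) at least 1.5-fold wider in non-hair cells. As many as 34 loci passed 1.5-fold first toward hair in pair 1 and then toward non-hair in pair 2, and 54 did so in the opposite order. By sign alone, 7449 loci were wider in hair cells in both pairs and 5932 wider in non-hair cells in both, while 4290 and 7907 had opposite signs, toward hair in pair 1 and in pair 2 respectively. Median log2 ratios of hair to non-hair width were -0.013 in pair 1 and 0.075 in pair 2, with SDs over loci of 0.26 and 0.38. Across the 25892 loci the log2 ratios of the pairs had a Pearson r of 0.0923, and the replicate 1 to replicate 2 ratios of the cell types had an r of 0.42. Loci of 1 list share its depth and caller settings, so these values describe the lists.

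Limma on log2 width, which shares the spread over loci, called 0 of the 25892 loci at an adjusted p under 0.05, and 172 had an unadjusted p under 0.05. The ADF8 locus had a log2 difference of 1.72 ± 0.18 (SE, n = 2 lists each, limma adjusted p = 1.00). The GL2 locus had a log2 difference of -2.10 ± 0.20 (SE, n = 2 lists each, limma adjusted p = 1.00). Widths at these loci therefore separated the hair lists from the non-hair lists in both pairs and did not pass the adjustment over all loci. Added promoter copy, line and cell type cannot be told apart there.

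**Figure D2:**
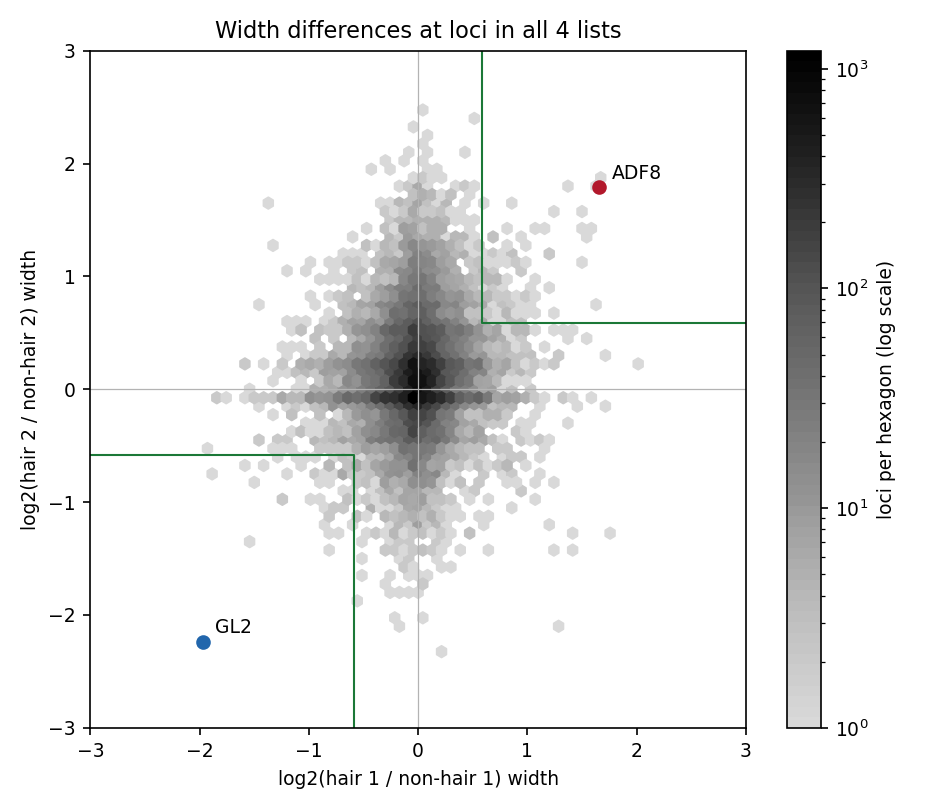
Log2 ratio of hair to non-hair width in pair 1 (x axis) against pair 2 (y axis) for the 25892 loci in all 4 lists, as loci per hexagon on a log scale. Green lines mark 1.5-fold in both pairs. ADF8 and GL2 lie far out along the diagonal, while most loci spread along 1 axis at a time.

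Other loci with large width differences lay away from these promoters. The locus of first rank toward hair, chr5:18986391-18987002, covered 586 and 569 bp in hair lists and 181 and 152 bp in non-hair lists. It overlapped MSP2 and lay beside PYL1, an abscisic acid receptor gene, and BOU, a mitochondrial carrier gene. The root tip INTACT lists covered 552 and 514 bp of it, close to the hair values. The third, chr5:21609652-21610208, covered 557 and 465 bp in hair lists and 195 and 152 bp in non-hair lists, between PDV1, a plastid division gene, and CRF3, a cytokinin response factor gene. In both cases non-hair replicate 2 held only the commonest width of its list.

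Toward non-hair cells, the second locus after GL2 was chr3:17896141-17896857, between PIMT1 and CEP2, with 233 and 266 bp in hair lists and 662 and 690 bp in non-hair lists. The third, chr1:10510893-10511465 in MNS3, an alpha-mannosidase gene, covered 238 and 142 bp in hair lists and 555 and 286 bp in non-hair lists. In hair replicate 2 this was the commonest width. Just inside the 1.5-fold limit, a hair locus had 297 and 233 bp in hair lists and 198 and 152 bp in non-hair lists, a smaller fold of 1.5. Just outside, a locus had 628 and 296 bp against 419 and 197 bp, a smaller fold of 1.499.

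The middle of the locus fell in a protein-coding gene for 37.1% of the 97 hair loci, 40.7% of the 59 non-hair loci and 43.6% of all 25892. Chromosome 1 held 40 of the 97 hair loci, 16 of the 59 non-hair loci and 6907 of all 25892. A region of INTACT root tip replicate 1 met 71.1% of the hair loci, 57.6% of the non-hair loci and 69.1% of all shared loci. For INTACT replicate 2 the shares were 46.4%, 35.6% and 51.4%. For sucrose replicate 1 they were 16.5%, 27.1% and 39.9%, and for sucrose replicate 2 they were 38.1%, 23.7% and 52.5%, so the order of hair and non-hair loci differed between the sucrose lists. Joining and splitting of regions followed the replicate more than the cell type. In 104 shared loci both hair lists had 1 region where both non-hair lists had several, and in 184 loci the reverse held. In 750 loci both replicate 1 lists had 1 region where both replicate 2 lists had several.

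Presence of a locus differed between pairs in most cases. In pair 1, 6996 loci were in the hair list alone and 7361 in the non-hair list alone. In pair 2 these numbers were 6473 and 2306. In both pairs alike, 512 loci (0.882% of 58036) were in the hair lists alone and 156 (0.269%) in the non-hair lists alone. Of the loci that pair 1 gave to hair cells alone, 7.32% did so again in pair 2 and 2.53% were reversed. Of those that it gave to non-hair cells alone, 2.12% did so again and 1.85% were reversed. Pair 2 gave 6473 of all 58036 loci to hair alone and 2306 to non-hair alone. Both repeat shares and both reversed shares were below the matching shares of all loci. All loci include those listed in both lists of pair 1, so this comparison does not show whether presence repeats. A list longer by more regions also holds more loci of its own, and pair 2 had 35679 hair and 31212 non-hair regions.

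The hair-only locus of first rank, chr5:11184665-11185273, covered 606 and 546 bp in hair lists and 0 bp in both non-hair lists. It was also listed in all 4 root tip lists, with 563 and 609 bp after INTACT and 583 and 608 bp after sucrose sedimentation, so of the 8 Arabidopsis lists the non-hair lists alone lacked it. The second, chr1:4134808-4135373, covered 566 and 425 bp in hair lists and lay before FMO, a flavin monooxygenase gene. The third, chr4:5232461-5232978, covered 496 and 332 bp and lay before UMAMIT20, a gene of an amino acid transporter family.

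Among non-hair-only loci, chr2:6358080-6358511 overlapped NPY2, a gene of an auxin-related family, and covered 432 and 398 bp in non-hair lists. Next were chr2:7434119-7434610 in AT2G17080, with 492 and 252 bp, and chr4:8469161-8469593, with 433 and 239 bp, before IQD19, which encodes a calmodulin-binding protein. All 4 root tip lists covered part of the second of these, by 372 to 492 bp. Root tip INTACT replicate 1 met 26.8% of the 512 hair-only loci and 35.3% of the 156 non-hair-only loci, against 37.9% of all loci. For INTACT replicate 2 these shares were 8.98%, 12.2% and 32.0%. For sucrose replicate 1 they were 1.76%, 13.5% and 18.96%, and for sucrose replicate 2 they were 4.88%, 12.8% and 25.3%. Hair-only loci thus had the lowest share in all 4 root tip lists. The cause was not tested.

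Coverage of 100 kb windows gave hair cells more accessible length than non-hair cells in both pairs at 168 of 1188 windows (14.1%), by at least 1 percentage point in each pair, and 0 windows (0%) the reverse. This direction depended on the scale of the lists. Mean coverage over windows was 14.7% and 9.63% in hair lists and 15.1% and 8.38% in non-hair lists. When each list was scaled to the same mean, 59 windows were higher in hair cells and 60 in non-hair cells. Opposite signs of at least 1 point were more frequent than agreement, since 321 windows were lower in hair cells in pair 1 and higher in pair 2, and 7 were the other way. Limma on percent covered called 0 of 1159 windows with any covered length at an adjusted p under 0.05, and 0 had an unadjusted p under 0.05.

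The disagreement between pairs followed distance from the chromosome end. Within 1 Mb of an end, windows were 17.3% and 12.2% covered in hair lists and 21.0% and 9.22% covered in non-hair lists. Hair was lower by a mean of 3.73 points in pair 1 (mean difference -3.73) and higher by 3.02 points in pair 2. At more than 8 Mb from an end, windows were 13.3% and 8.34% covered in hair lists and 11.7% and 7.62% in non-hair lists, and hair was higher in both pairs, by 1.55 and 0.716 points. The share of windows with more coverage in hair went from 14.6% to 84.2% between these classes in pair 1 and from 97.9% to 73.2% in pair 2. Non-hair replicate 1 stood apart at the ends. At 9 of 10 chromosome ends its first or last 10 windows had a higher mean than those of hair replicate 1, the exception being the first end of chromosome 1. There the mean coverage was 23.5% and 15.6% in hair lists and 20.9% and 8.47% in non-hair lists. Away from the ends by at least 4 Mb, 151 of 792 windows were higher in hair cells and 0 in non-hair cells. This again depended on the scale of the lists. After scaling to the same list mean, counts toward hair and non-hair were 8 and 16 at 4 to 6 Mb. They were 19 and 9 at 6 to 8 Mb, and 19 and 3 at more than 8 Mb.

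**Figure D3:**
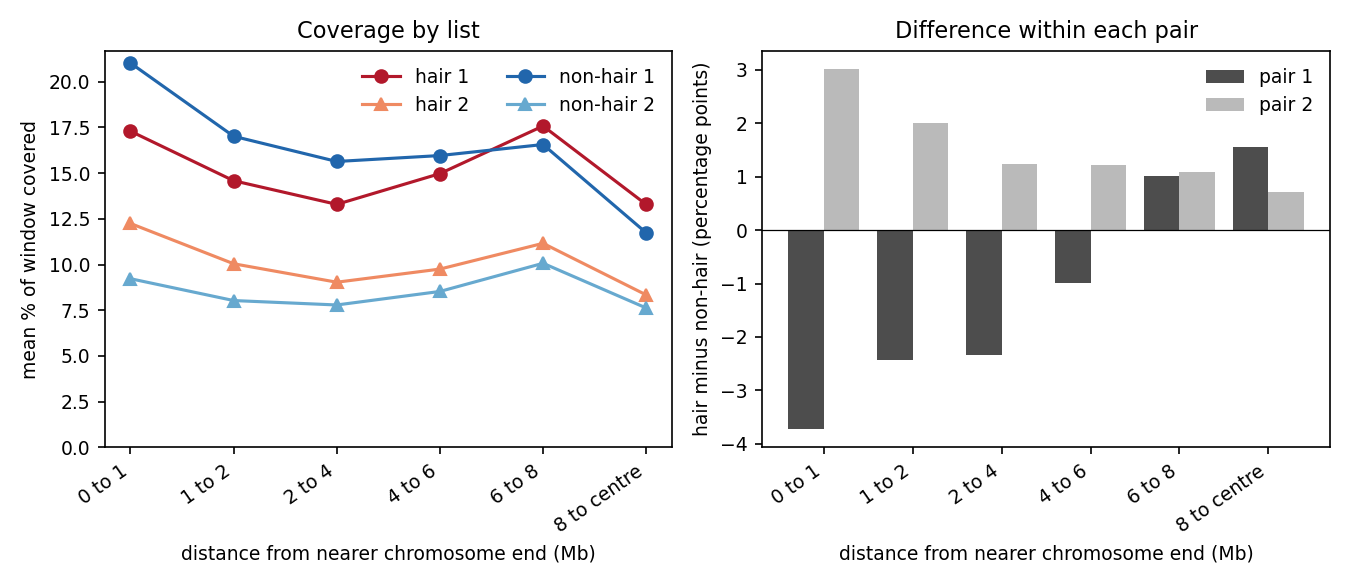
Mean percent of 100 kb windows covered in each list (left) and mean difference of hair minus non-hair in each pair (right), by distance from the nearer chromosome end. Non-hair replicate 1 lies above hair replicate 1 up to 6 Mb from the end and below it further in, and pair 2 is above 0 in all 6 classes.

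Called windows formed 100 runs of adjacent windows, 70 of them a single window. A run of 8 windows covered 0.2 to 1.0 Mb of chromosome 1, and a run of 23 windows covered 6.8 to 9.1 Mb of chromosome 5. The next longest had 4. In the chromosome 1 run, mean coverage was 24.97% and 16.5% in hair lists and 19.9% and 8.35% in non-hair lists. Hair was higher by 5.07 points in pair 1 and by 8.15 points in pair 2, and all 8 windows were still called after scaling to the same list mean. Root tip INTACT lists covered 4.15% and 3.18% of it, less than any epidermal list. This was not particular to the run. Over chromosomes 1 to 5 these INTACT lists covered 8.80 and 8.30 Mb, against 9.98 to 18.0 Mb in the epidermal lists.

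The chromosome 1 run began with a step. At 0.1 to 0.2 Mb coverage was 22.3% and 15.2% in hair lists and 29.9% and 11.6% in non-hair lists. At 0.2 to 0.3 Mb it was 32.6% and 22.4% in hair lists and 21.6% and 8.92% in non-hair lists. Between these neighbours both hair lists were higher and both non-hair lists lower, and the pair 1 difference changed from -7.52 to 11.0 points. The pair 2 difference changed from 3.54 to 13.5 points. In 3 successive steps of 20 kb, the last of them beginning at 0.2 Mb, the pair 1 difference was -8.71, 1.95 and 15.5 points. The 3 windows with the largest differences in both pairs were the first 3 of this run. The last 2 were 29.8% and 17.02% covered in hair lists against 21.9% and 6.39% at 0.3 to 0.4 Mb, and 36.4% and 24.7% against 29.9% and 12.03% at 0.4 to 0.5 Mb. The difference then became smaller along the run, to 1.203 and 4.62 points in its last window.

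The chromosome 5 run was less steep. It averaged 20.9% and 12.7% in hair lists and 16.3% and 9.71% in non-hair lists, a difference of 4.59 points in pair 1 and 3.003 in pair 2. After scaling, 17 of its 23 windows were still called. A change of sign also lay near 2.1 Mb of chromosome 5. The window at 2.0 to 2.1 Mb was 17.7% and 12.5% covered in hair lists and 12.4% and 6.38% in non-hair lists. The window at 2.2 to 2.3 Mb was 12.1% and 8.94% covered in hair lists and 21.2% and 9.60% in non-hair lists, which made it one of the 3 windows lowest in hair in both pairs. The pair differences there were -9.14 and -0.659 points, so it was not counted as different. After scaling to the same list mean the differences were -6.99 and -2.60 points, and it was then counted as higher in non-hair cells, in a run of 3 windows from 2.2 to 2.5 Mb. The other lowest windows, at 3.3 to 3.5 Mb of chromosome 2, differed by -1.83 and -0.644 points and by -1.91 and -0.76 points and were not counted either. After the same scaling the window at 3.4 to 3.5 Mb, at -1.15 and -4.34 points, was counted as higher in non-hair cells. The other, at -0.983 and -5.02 points, was not. Before scaling the counted window was 17.5% and 17.6% covered in hair lists and 19.4% and 18.3% in non-hair lists. Sucrose root tip lists covered 31.9% and 32.4% of it. Mean coverage was 9.63% in hair replicate 2 and 8.38% in non-hair replicate 2, so scaling raised non-hair replicate 2 more. A cell type difference there was not tested.

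**Figure D4:**
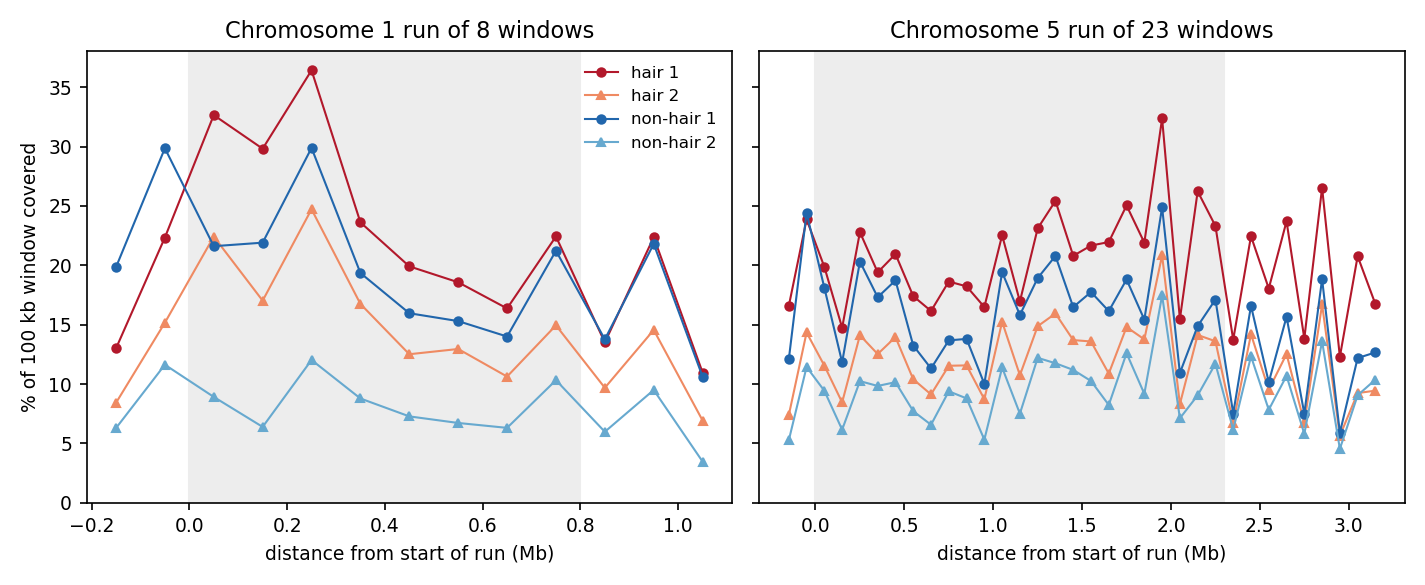
Percent of each 100 kb window covered (y axis) in the 4 lists against distance from the start of the run (x axis, Mb), for the runs of 8 and 23 windows, shaded. In the shaded stretch each hair list lies above the non-hair list of the same replicate number, and on chromosome 1 the lines of replicate 1 cross at its start.

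The runs were chosen by covered length, so counts of loci and genes inside them restate the same values and are given as a description. The 2 runs held 13 of the 97 loci wider in hair cells (13.4%) and 57 of the 512 hair-only loci (11.1%), against 3.03% of all shared loci and 3.35% of all loci. They held 1 of the 59 loci wider in non-hair cells and 0 of the 156 non-hair-only loci. Of 249 protein-coding genes in the chromosome 1 run, 134 (53.8%) had at least 100 bp more covered length in hair cells in both pairs. In the chromosome 5 run 207 of 545 genes (38.0%) did, and in both runs 0 genes had more in non-hair cells.

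Covered length was then summed over each protein-coding gene with 1 kb on either side, called its span. Spans of neighbouring genes can overlap and then share regions. Where groups are said not to overlap at a gene or locus, this describes its listed values alone. The share of all spans or loci with such separation is not given here. Of 27432 spans, 2472 (9.01%) had at least 100 bp more in hair cells in both pairs and 950 (3.46%) at least 100 bp more in non-hair cells. With the median difference of genes within 250 kb removed, the counts were 2325 and 1215. With each list cut to its 31212 widest regions they were 1936 and 1344. Opposite signs of that size were seen at 656 spans toward hair in pair 1 and at 3147 spans toward hair in pair 2. Limma called 0 of the 24426 spans with covered length at an adjusted p under 0.05, and 16 had an unadjusted p under 0.05. The span of ADF8 differed by 858 ± 154 bp (SE, n = 2 lists each, limma adjusted p = 1) and that of GL2 by -1329 ± 690 bp (SE, n = 2 lists each, limma adjusted p = 1).

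Among genes of hair fate and growth, counts in both directions were small. Of 30 genes, 3 had more covered length in hair cells in both pairs (10%) and 2 more in non-hair cells (6.67%). Over all genes these shares were 9.01% and 3.46%. The median pair differences of the list were -3 and 31.5 bp, against -1 and 22 bp over all genes. Covered length was above 0 in all 4 lists for 24 of the 30, and RSL1, which acts with RHD6, had 0 bp in all 4.

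ADF8 was the first of the 3 toward hair. The second was LRL1, a helix-loop-helix factor of hair development, with 2040 and 1024 bp in hair lists and 1382 and 809 bp in non-hair lists. The third was XTH14, a xyloglucan-modifying wall enzyme, with 952 and 323 bp in hair lists and 762 and 0 bp in non-hair lists. For LRL1 and XTH14 the 2 groups overlapped, since replicate 1 of non-hair exceeded replicate 2 of hair. With the widest regions alone, XTH14 was no longer counted.

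LRL3, a relative of LRL1, had the opposite sign, with 1843 and 838 bp in hair lists and 2240 and 1243 bp in non-hair lists. PIP5K3, a lipid kinase of hair tips, had 1419 and 642 bp in hair lists and 1551 and 947 bp in non-hair lists. RHD6, the factor that starts hairs, had 517 and 402 bp in hair lists and 405 and 395 bp in non-hair lists, and its pair 2 difference was 7 bp. RSL4, which sets final hair length, had 485 and 287 bp in hair lists and 343 and 270 bp in non-hair lists. Both factors had more in hair lists in each pair without reaching 100 bp in pair 2. The wall genes EXPA7, with 1083 and 519 bp against 1469 and 490 bp, and LRX1, with 797 and 223 bp against 866 and 0 bp, had opposite signs in the pairs. So did RBOHC, the oxidase of hair tip growth, with 2101 and 1464 bp against 2868 and 1378 bp.

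Among 16 genes of epidermal fate, 2 had more covered length in hair cells and 2 more in non-hair cells (12.5% each, against 9.01% and 3.46% of all genes). GL2 had 1134 and 697 bp in hair lists and 3175 and 1314 bp in non-hair lists over its span, which holds only part of the upstream block. MYB23, a MYB factor that acts with WER, had 322 and 296 bp in hair lists and 605 and 494 bp in non-hair lists. The groups did not overlap at MYB23. Its promoter is not among those the labels name for the transgenes, and line and cell type cannot be told apart at this gene either. Root tip lists covered the MYB23 span by 971 and 269 bp after INTACT and by 150 and 140 bp after sucrose sedimentation.

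ETC3, a small MYB that blocks the WER complex, had 1261 and 828 bp in hair lists and 1090 and 438 bp in non-hair lists. HDG11, a homeodomain factor related to GL2, had 468 and 264 bp in hair lists and 264 and 152 bp in non-hair lists. With the local median removed, HDG11 was no longer counted. The other inhibitor CPC had 1148 and 929 bp in hair lists and 1298 and 749 bp in non-hair lists. WER itself had 0 bp in 3 lists and 241 bp in non-hair replicate 1. TTG1 lay in the chromosome 5 run and had 1316 and 793 bp in hair lists and 1371 and 465 bp in non-hair lists.

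**Figure D5:**
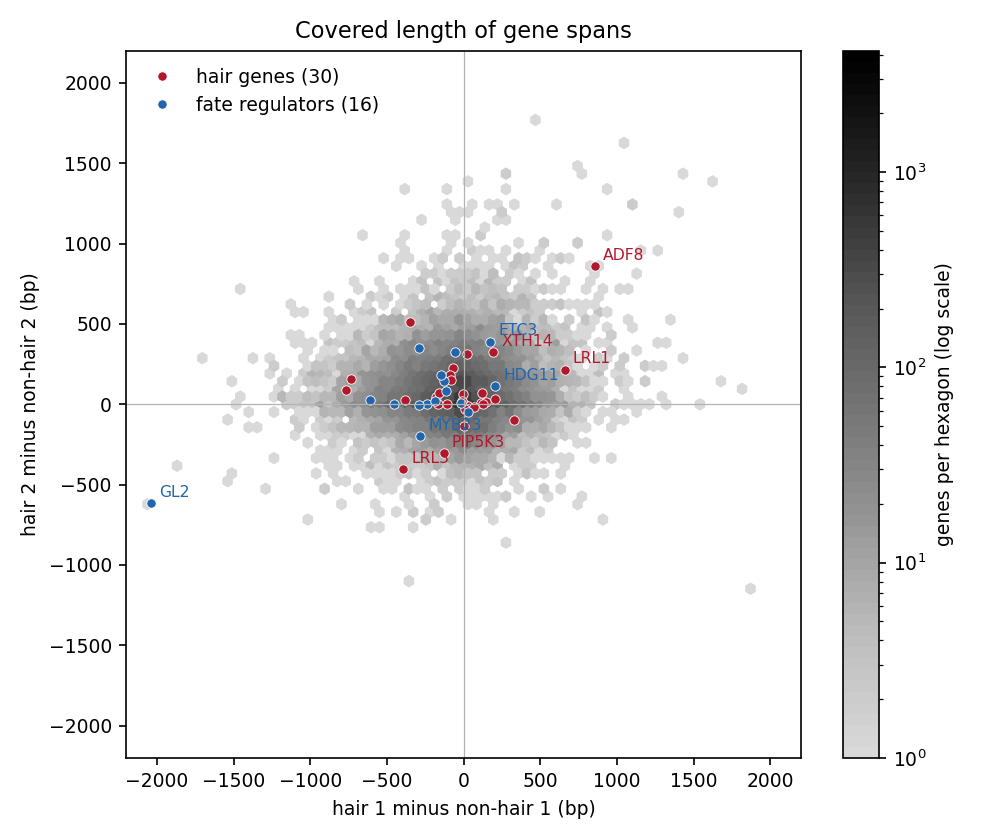
Hair minus non-hair covered length in bp of gene spans in pair 1 (x axis) against pair 2 (y axis), as genes per hexagon on a log scale, with 30 hair genes and 16 fate regulators as points. GL2 and ADF8 lie at the edge of the cloud, and counted members are named. ADF8 lies near the diagonal (855 and 860 bp), and GL2 lies further out in pair 1 (-2041 bp) than in pair 2 (-617 bp).

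Among 15 genes of nutrient uptake, for which root hairs are known, 3 had more in hair cells (20%, against 9.01% of all genes) and 1 more in non-hair cells (6.67%, against 3.46%). FRO2, the ferric chelate reductase, had 1544 and 1250 bp in hair lists and 1164 and 351 bp in non-hair lists, and its groups did not overlap. It lay in the chromosome 1 run, where 53.8% of genes had more in hair cells. AKT1, a potassium channel, had 2696 and 1439 bp in hair lists and 2486 and 1126 bp in non-hair lists. SULTR1;1, a sulfate transporter, had 485 and 142 bp in hair lists and 262 and 0 bp in non-hair lists. AKT1 and SULTR1;1 were no longer counted with the widest regions alone. AHA2, the main proton pump of root plasma membranes, had 2942 and 1916 bp in hair lists and 3632 and 2419 bp in non-hair lists. The iron transporter IRT1, the partner of FRO2 in iron uptake, had 713 and 428 bp in hair lists and 811 and 522 bp in non-hair lists, just short of 100 bp in both pairs.

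Markers of other root cell types were also covered in part. Of 24 such genes 13 had covered length in all 4 lists (54.2%, against 73.2% of all genes), and APL, CESA8 and SMB had 0 bp in all 4. The sum over the list was 16222 and 7239 bp in hair lists and 16387 and 4710 bp in non-hair lists, which differed mainly by replicate. More in hair cells was seen for 3 genes (12.5%, against 9.01% of all genes) and more in non-hair cells for 0 (against 3.46%). PHO1, the phosphate exporter of the stele, had 1568 and 358 bp in hair lists and 298 and 0 bp in non-hair lists, and its groups did not overlap. SUC2, the sucrose carrier of phloem companion cells, had 639 and 361 bp against 403 and 152 bp. BRN1, a root cap factor, had 730 and 433 bp against 569 and 270 bp. SUC2 was no longer counted with the widest regions alone, nor BRN1 with the local median removed. The part of other cell types in these differences was not tested. None of the 6 housekeeping genes was counted in either direction. Of 6 photosynthesis genes, RBCS1A had more in hair cells, with 2103 and 1910 bp against 2001 and 1715 bp, and LHCA1 more in non-hair cells, with 1362 and 797 bp against 1536 and 955 bp. Each is 16.7% of the list, against 9.01% and 3.46% of all genes. RBCS1A was no longer counted with the local median removed, nor LHCA1 with the widest regions alone.

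Of the 8 genes with a symbol that had the largest differences toward hair, 4 lay in the long runs. MPK11, a MAP kinase gene, had 2616 and 1563 bp in hair lists and 995 and 207 bp in non-hair lists. Its neighbour BPS1, needed to limit a root-derived signal, had 2491 and 1809 bp against 1357 and 848 bp. GPAT4, an acyltransferase of cutin synthesis, had 2169 and 937 bp against 908 and 0 bp. These genes lay with FRO2 in the chromosome 1 run. ZFP3, a zinc finger factor gene in the chromosome 5 run, had 2295 and 1886 bp in hair lists and 1249 and 249 bp in non-hair lists. Groups did not overlap at MPK11, BPS1, GPAT4 and ZFP3, which were picked for large differences.

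Outside the runs stood ADF8, which ranked 11 from the hair end among all spans. Its neighbour ULP1B had 1620 and 1484 bp in hair lists and 780 and 632 bp in non-hair lists, with the shared region included. CYP735A1, a cytokinin hydroxylase gene, had 1910 and 942 bp in hair lists and 1044 and 152 bp in non-hair lists, and its groups overlapped. UMAMIT22, a gene of the amino acid transporter family, had 2057 and 1587 bp against 1254 and 808 bp, and its groups did not overlap. Root tip INTACT lists covered CYP735A1 by 2026 and 874 bp and UMAMIT22 by 1876 and 1159 bp. The replicate 2 value lay within the range of the non-hair lists at both genes, and the replicate 1 value did not.

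Toward non-hair cells GL2 came first among genes with a symbol and ranked 2 among all spans. PEN3, an ABC transporter gene of pathogen defence, followed among genes with a symbol. It had 4383 and 3239 bp in hair lists and 4994 and 4010 bp in non-hair lists. PEN2, a glucosinolate hydrolase gene of the same defence pathway, had 1322 and 712 bp in hair lists and 2218 and 1225 bp in non-hair lists. LHT1, an amino acid transporter gene, had 1735 and 1019 bp against 2291 and 1758 bp, and its groups did not overlap. These 3 genes thus differed by 500 bp or more in both pairs, and the groups overlapped at PEN3 and PEN2.

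WRKY26, a WRKY factor gene, had 1765 and 941 bp in hair lists and 2318 and 1577 bp in non-hair lists. EXT3, an extensin gene of the cell wall, had 1317 and 476 bp against 1852 and 1141 bp. NSH3, a nucleoside hydrolase gene, had 1524 and 513 bp against 2007 and 1059 bp. AHA2, given above, completed the 8 genes. The groups overlapped at AHA2, WRKY26, EXT3 and NSH3. None of these 8 lay in a long run, and all 8 were counted in the same direction with the local median removed and with the 31212 widest regions alone.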

How the data were processed

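The authors deposited 1 list of accessible regions per sample, with a chromosome, a start and an end and no score. Bowtie2, HOMER and the build TAIR10 are named per the submitters' processing notes, without versions or order, and list names carry a HOMER setting of 150. Nothing else about how regions were called, filtered or pooled is given in the sources used here. These lists were the only input, and width in bp and percent covered were computed from them.

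Overlapping regions (1 bp or more) of the 4 lists were joined into loci. Windows had 100 kb. Differences were hair minus non-hair within a replicate number, counted when both pairs passed 1.5-fold (width), 1 percentage point (windows) or 100 bp (genes). Gene positions came from a RefSeq table of TAIR10.1, in which all 97 listed genes were found. In 80 of 80 profiles, from 20 chromosome segments in 4 lists, covered length peaked within 100 bp of gene edges. The table gives no strand, so the planned promoter window was replaced by the gene with 1 kb on either side, after the files were seen. Promoter motifs were not searched.

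Limma fitted log2 width, percent covered and bp with Benjamini-Hochberg adjustment. List totals had exact permutation tests. Genes and loci were named by rule: genes of the transgene promoters, listed genes counted as different, and those of largest smaller pair difference. The last were 8 genes with a symbol, 3 loci and 3 windows in each direction. Genes given for contrast, such as RHD6 and WER, were chosen after their values were seen. The members, lists and rules were chosen with earlier results of these data known. Alternatives were other thresholds, windows, scalings, joining of regions, equal list lengths, a replicate block and leaving out replicates. Routines were tested on simulated lists. Genomic DNA was not analysed here. Tools were R 4.3.3 with limma 3.58.1, and pandas 2.3.3, NumPy 2.4.6, SciPy 1.17.1 and Matplotlib 3.10.9 under Python 3.11.15.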

Additional observations from a re-analysis of the deposited data

How the results depend on the processing

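Of 62 alternative values outside the replicate left out settings, 41 kept their size or their call and 21 moved. The 41 include replicate block estimates of list totals and of ADF8 and GL2, which equal the main values by construction. Presence in the hair lists alone (512) became 1103 with a reciprocal overlap of 50% and 791 with list lengths made equal by width, and presence in the non-hair lists alone (156) became 447 and 533. Loci wider in hair cells (97) numbered 188 with regions under 150 bp apart joined, 47 where every width exceeded the commonest and 14 at 2-fold. Loci wider in non-hair cells (59) numbered 39 with 1 region in every list, 32 above the commonest width and 3 at 2-fold. With widths centred on list medians the counts were 84 and 73. Windows higher in hair (168) numbered 59 when scaled to the same mean, 378 at 50 kb, 29 at 500 kb and 54 at 2 points, and those higher in non-hair (0) numbered 60 when scaled, 12 at 50 kb and 8 with the widest regions. Gene spans with more in hair (2472) numbered 969 without flanks and 949 at 200 bp, and those with more in non-hair (950) numbered 512 and 267. The cause of these moves was not tested.

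Leaving out a replicate number removes the demand that both pairs agree. Presence in hair lists alone then ranged from 6473 to 6996 and in non-hair lists alone from 2306 to 7361. Loci wider in hair ranged from 484 to 2313 and in non-hair from 631 to 707. Windows higher in hair ranged from 401 to 620 and in non-hair from 8 to 433. Gene spans ranged from 6101 to 8846 toward hair and from 2484 to 8598 toward non-hair. Limma gave 0 calls without each list in turn.

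The replicate numbers are a shared number without a stated batch. With the replicate block limma again made 0 calls for loci, windows and genes, with 1009, 18 and 829 at an unadjusted p under 0.05. The block cannot change the log2 difference of covered length, 0.081. With balanced pairs the mean of the pair differences equals the difference of the means. For the listed hair genes, counts toward hair and non-hair were 4 and 2 with the local median removed and 3 and 3 with the widest regions. For fate regulators they were 1 and 4, and 2 and 2. The strand-based promoter windows could not be run. Depth is unknown, which limits every count of regions.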

Other observations

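Other classes of gene were met by regions to a different extent, and these values follow the replicate number as well. Regions of the hair lists met 447 and 355 of 625 tRNA genes, and regions of the non-hair lists met 465 and 331. For small nuclear RNA genes the numbers were 49 and 46 of 82 in hair lists and 50 and 44 in non-hair lists. For long noncoding RNA genes they were 1697 and 1283 of 3480 in hair lists and 1682 and 1130 in non-hair lists, higher in hair in both pairs. Pseudogenes were met least, with 410 and 166 of 3917 in hair lists and 292 and 180 in non-hair lists, and the pairs had opposite signs.

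The share of covered length inside protein-coding genes was 53.2% and 44.9% in hair lists and 55.5% and 44.8% in non-hair lists. In root tip lists it was 33.7% and 54.9% after INTACT and 34.3% and 35.4% after sucrose sedimentation.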
